A study of Homo sapiens with 9 samples.

Results

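HSF1 and 9 cytosolic heat shock chaperones were followed across 9 libraries of Hap1 cells. The 10 genes were taken by name from the deposited expression tables, out of 78894 genes, and all 10 passed the filter on low counts that left 16908 genes to test. They are the transcription factor HSF1, the HSP70 chaperones HSPA1A, HSPA1B and HSPA8, the HSP110 protein HSPH1, the J-domain proteins DNAJB1 and DNAJA1, the HSP90 chaperones HSP90AA1 and HSP90AB1, and the small heat shock protein HSPB1. Hap1 is a human line with a near-haploid genome that descends from leukaemia cells. In all groups the endogenous SARS2 gene, which encodes mitochondrial seryl-tRNA synthetase, carried a deletion, and a FLAG-tagged SARS2 copy that doxycycline can induce had been left without doxycycline for 6 days. The groups differed in a constitutive myc-tagged SARS2 copy, which was R227Q, H448L or wild type (WT), with 3 libraries each. In every group this copy is also labelled int14, a term the labels do not define. By design that copy was the remaining source of the enzyme. The promoter of that copy, and whether each line came from 1 clone, are not stated in the sources used.

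Heat shock chaperones keep proteins folded in the cytosol and nucleus. In resting cells HSF1 is held inactive by chaperones, and when unfolded protein accumulates it forms trimers that bind heat shock elements, inverted repeats of a GAA core, in the promoters of chaperone genes. J-domain proteins hand clients to HSP70 and speed its ATP hydrolysis, HSP110 proteins exchange the nucleotide, and HSP90 acts later on kinases and receptors that are nearly folded. HSPA8 and HSP90AB1 are the constitutive forms of their families, whereas HSPA1A, HSPA1B, HSP90AA1, DNAJB1 and HSPB1 are classed as heat-inducible.

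The column names carry 2 prefixes. Libraries R227Q 2, R227Q 3, H448L 1 to 3 and WT 3 have 4LJFHN, and R227Q 1, WT 1 and WT 2 have SDKYMR. These prefixes are read here as 2 submissions to a sequencing service, a reading that rests on the column names. Total counts were 9900892 to 12991050 per library, so 1 count stood for 0.0770 to 0.101 CPM (the count scaled to a library total of 1000000), and the least abundant value of any of the 10 genes was 430.5 counts. SARS2 was listed in every library at 7.09 to 8.68 CPM in R227Q, 7.88 to 8.68 CPM in H448L and 6.20 to 8.54 CPM in WT, and passed neither test against WT (edgeR adjusted p = 0.375 for R227Q and 0.286 for H448L). Which of the SARS2 copies these counts hold is not stated in the sources used. No markers of Hap1 itself were listed, and each listed marker of other cell types had a count in some library. Summed CPM was 79.2 to 92.2 in the variants and 78.0 to 81.5 in WT for 5 epithelial markers, and at most 11.1 in any library for 7 haematopoietic markers. It was 23.7 to 67.7 in the variants and 18.9 to 54.0 in WT for 6 fibroblast markers. That sum split by submission, at 54.0 to 67.7 CPM in 4LJFHN and 18.9 to 23.7 CPM in SDKYMR, and the submissions hold the genotypes unevenly. For 6 markers of neuronal and embryonic kidney lines the sum was 145 to 165 in the variants and 160.4 to 170.3 in WT. Of these markers CRYM rose (0.62 in R227Q and 0.61 in H448L, log2) and TUBB3 fell (−0.17 and −0.27) in both variants. KRT18 (0.15) and COL1A1 (0.29) rose in R227Q, but other markers of their lists did not. There the 3 tested fibroblast markers had a median of −0.24 (lowest −0.34), and the lowest of 3 tested epithelial markers stood at −0.34, with 0 called lower in either list. Their part in the results was not tested. Whether a group's libraries are separate cultures is not stated in the labels, so p-values reflect spread among these libraries that may be technical.

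Sequence upstream of the genes was searched for heat shock elements. The genes were listed as driven by HSF1, so its element in their promoters is background to the expression values and not an independent finding. RefSeq promoters (GRCh38.p14) were found for 9 of the 10 genes, and the 250 bases before each annotated start were read. The 3-unit motif was written as TTCNNGAANNTTC or GAANNTTCNNGAA and the 2-unit motif as TTCNNGAA or GAANNTTC, forms that cover both strands, and a 3-unit match contains 2-unit matches. A 3-unit match lay in 3 of the 9 genes, HSPA8, HSP90AA1 and HSP90AB1, against 0.557% of 27305 genes in the table. A 2-unit match lay in 8 of the 9, HSPH1 being the exception, against 14.0% of all genes. A gene with several promoters was counted if any of them matched. By promoter, a 3-unit match lay in 3 of 14 and a 2-unit match in 8 of 14, against 0.441% and 11.6% of all promoters. HSP90AA1, HSP90AB1 and DNAJB1 also have promoters with no match. A match is a run of letters, not evidence of binding. The 3-unit matches are shown in 30-base windows with the match in capitals, because they match the longer of the motifs searched. They lie on the minus strand at chr11:123062345-123062374 and chr11:123062170-123062199 (HSPA8) and chr14:102087111-102087140 (HSP90AA1), and on the plus strand at chr6:44247770-44247799 and chr6:44247823-44247852 (HSP90AB1). The HSP90AA1 window ends in the first letters of a further 2-unit match, also in capitals. Some of these windows fall in exons of alternative transcripts in the annotation.
HSPA8, far: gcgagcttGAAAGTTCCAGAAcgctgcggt
HSPA8, near: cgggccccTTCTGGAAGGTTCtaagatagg
HSP90AA1: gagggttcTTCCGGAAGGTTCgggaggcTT
HSP90AB1, far: ggagcaggTTCTGGAAGATTCatgggctcc
HSP90AB1, near: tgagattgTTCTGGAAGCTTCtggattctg

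The first question was what distinguishes cells that rely on R227Q SARS2. HSPA8 and HSPH1 fell most among the 10 genes, 1.31-fold and 1.29-fold lower in R227Q. DNAJA1, HSPA1A, HSPA1B and HSP90AB1 also fell, by 0.16 to 0.22 on the log2 scale. In all, 6 of the 10 genes were lower, where 9.91% of all genes tested were lower, and 0 were higher, where 7.50% of all genes were higher (17.4% in either direction; edgeR quasi-likelihood test with a submission term, Benjamini-Hochberg adjusted p under 0.05). HSF1, HSP90AA1, DNAJB1 and HSPB1 did not pass. These 10 genes had at least 430.5 counts in every library, and small differences pass more easily at high counts. Neither here nor for the lists below were the shares over all genes matched on count. At an unadjusted p under 0.05, 8 of the 10 were lower and 0 higher, where 15.8% of all genes were lower and 13.9% higher, and DESeq2 called 6 lower and 0 higher. In 4LJFHN libraries alone HSPA8, HSPH1 and HSP90AA1 passed. The median log2 fold change was −0.18 over the 10 genes and 0.00166 over all genes. In bulk RNA, fewer cells expressing a gene and less of its RNA per cell cannot be told apart.

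In H448L against WT, 6 of the 10 genes were lower and 0 were higher, where 4.99% of all genes were lower and 2.97% higher (7.97% in either direction). HSPA8 was 1.17-fold lower, HSPA1B 1.14-fold, HSPH1 and HSP90AB1 1.13-fold, and DNAJA1 and HSPA1A 1.12-fold and 1.11-fold. HSF1, HSP90AA1, DNAJB1 and HSPB1 did not pass here either. At an unadjusted p under 0.05, 7 were lower and 0 higher, where 11.6% of all genes were lower and 9.85% higher, and DESeq2 called 4 lower and 0 higher. In 4LJFHN libraries alone HSPA8 and HSP90AB1 passed. The median log2 fold change was −0.16 over the 10 genes and 0.00581 over all genes. The comparison shares its WT libraries with that of R227Q, so the results are not independent. All 3 H448L libraries were in 4LJFHN, beside 1 WT library. Without WT 3 no H448L library shares a submission with WT, and 0 of the 10 genes passed. With upper-quartile factors HSPA1A, HSPA1B and HSPH1 no longer passed (adjusted p = 0.0787, 0.0702 and 0.0821), and by DESeq2 HSPA1B and HSPH1 did not (adjusted p = 0.0701 and 0.0636).

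**Figure D1:**
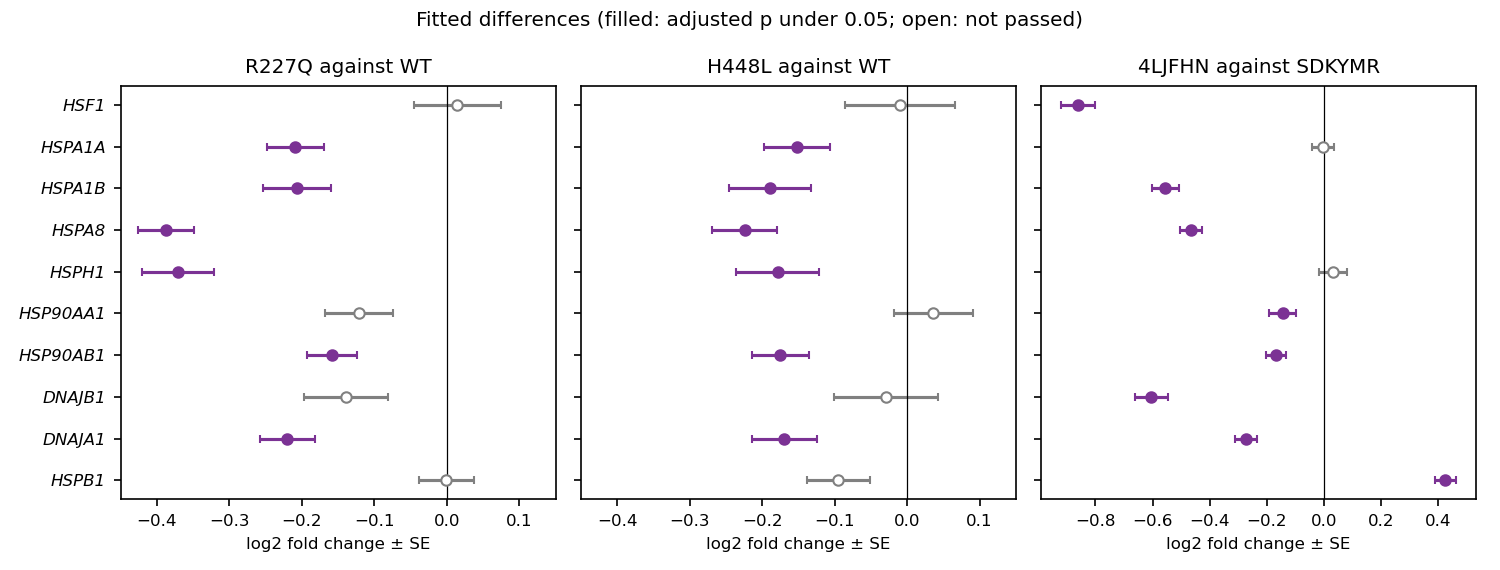
Log2 fold change of each gene with its standard error (horizontal axis) in R227Q against WT, H448L against WT, and submission 4LJFHN against SDKYMR, from the fit over 9 libraries; filled points passed an adjusted p under 0.05. The largest genotype difference is −0.39 for HSPA8 in R227Q. The submission differences of HSF1, HSPA1B, HSPA8 and DNAJB1 (−0.86, −0.55, −0.46 and −0.60) are larger than their genotype differences. In size, so are those of HSPB1 (0.43), DNAJA1 (−0.27) and HSP90AA1 (−0.14). For HSPA1A and HSPA1B added together, which is not drawn, the submission difference is −0.13, smaller than the R227Q difference of −0.21 and the H448L difference of −0.16.

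HSF1 (GRCh38 chromosome 8, 144291591 to 144314722, plus strand) is the regulator of the group. Its level was 81.3, 44.1 and 45.8 CPM in R227Q 1 to 3, 40.7, 49.5 and 45.6 CPM in H448L 1 to 3, and 74.8, 80.9 and 46.0 CPM in WT 1 to 3. The 3 high libraries are those of SDKYMR, and within 4LJFHN the H448L libraries span those of R227Q and WT. The log2 fold change was 0.01 ± 0.06 (SE) in R227Q (edgeR adjusted p = 0.908) and −0.0095 ± 0.08 in H448L (adjusted p = 0.964). R227Q differed from WT by −0.04 within 4LJFHN, where H448L differed by −0.05, and by 0.05 within SDKYMR. The annotated gene overlaps DGAT1 on the opposite strand by 139 bases, and whether counting used strand is not stated in the sources used.

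HSPA8, the constitutive HSP70 also known as HSC70 (chromosome 11, 123057489 to 123063230, minus strand), stood at 505, 373 and 369.9 CPM in R227Q 1 to 3, at 412, 411 and 445 CPM in H448L 1 to 3, and at 639, 648 and 493 CPM in WT 1 to 3. R227Q 1 lay just above WT 3, which belongs to the other submission, but within each submission every variant library was below every WT library. The share of all genes that do so was not counted. The difference was −0.39 ± 0.04 in R227Q (adjusted p = 1.74e-08; −0.42 in 4LJFHN and −0.36 in SDKYMR). In H448L it was −0.22 ± 0.04 (adjusted p = 0.00145), with −0.24 in 4LJFHN. By p-value HSPA8 ranked 55 among all genes in R227Q against WT. The R227Q call held with each of the 9 libraries left out in turn and was lost without the submission term, where the difference was −0.54 (adjusted p = 0.107). The H448L call was lost without WT 3 (adjusted p = 0.220) and without the submission term, where the difference was −0.55 (adjusted p = 0.0970).

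HSPA1A and HSPA1B encode the stress-inducible HSP70 and lie near each other on the plus strand of chromosome 6, at 31815464 to 31817946 and 31827735 to 31830255. Their coding sequences have the same 1926 bases apart from 4 (99.8% identical), and 93.8% of the 50-base stretches of the coding sequence occur in both genes, so counting could divide reads between them. None of the 50-base stretches after the coding sequence is shared. The stretch from coding base 1831 to 1920 holds 3 of the 4 differences, in capitals, and shows how little of the coding sequence tells the genes apart.
HSPA1A: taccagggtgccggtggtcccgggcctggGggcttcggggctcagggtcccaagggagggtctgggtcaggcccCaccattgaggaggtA
HSPA1B: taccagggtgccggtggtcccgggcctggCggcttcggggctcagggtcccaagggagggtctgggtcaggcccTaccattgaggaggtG

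The promoters of both genes are also alike. The parts before the annotated exons, chr6:31815293-31815463 for HSPA1A and chr6:31827488-31827734 for HSPA1B, each hold the 2-unit match GAATATTC, in capitals, about 100 bases before the RefSeq start and none of the 3-unit motif.
HSPA1A: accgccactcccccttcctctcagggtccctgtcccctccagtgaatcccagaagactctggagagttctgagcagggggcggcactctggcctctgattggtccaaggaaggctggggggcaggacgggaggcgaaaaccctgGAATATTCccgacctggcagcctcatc
HSPA1B: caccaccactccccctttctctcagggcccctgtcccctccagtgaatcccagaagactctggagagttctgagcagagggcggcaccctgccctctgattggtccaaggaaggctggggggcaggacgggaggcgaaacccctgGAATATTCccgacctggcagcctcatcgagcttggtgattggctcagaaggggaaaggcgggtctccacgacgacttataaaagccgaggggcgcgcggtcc

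For HSPA1A, 271, 286 and 285 CPM were counted in R227Q 1 to 3, 306, 296 and 291 CPM in H448L 1 to 3, and 321, 313 and 321 CPM in WT 1 to 3. In these CPM the 3 genotypes did not overlap, with R227Q lowest and WT highest. How many of all genes separate this way was not counted. H448L and R227Q did not differ in the edgeR test (0.06 ± 0.04, adjusted p = 0.654). After removal of the submission difference R227Q 3 and H448L 3 were almost level, at −0.074 and −0.073 from the gene's mean (log2). The mean was 281 ± 8.58 CPM in R227Q, 298 ± 7.61 CPM in H448L and 318 ± 4.98 CPM in WT (SD, n = 3 each). The log2 fold change was −0.21 ± 0.04 in R227Q (adjusted p = 2.98e-04; −0.18 in 4LJFHN and −0.24 in SDKYMR) and −0.15 ± 0.05 in H448L (adjusted p = 0.0358; −0.13 in 4LJFHN). The R227Q call was lost without R227Q 1 (−0.18, adjusted p = 0.0523), in 4LJFHN alone (−0.18, adjusted p = 0.0800) and without the submission term (−0.21, adjusted p = 0.0922). The H448L call was lost when any library other than H448L 1 was left out, with adjusted p up to 0.213, and without the submission term (−0.15, adjusted p = 0.145).

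HSPA1B had 103, 69.5 and 72.8 CPM in R227Q 1 to 3, 73.8, 72.2 and 73.9 CPM in H448L 1 to 3, and 116, 115 and 83.7 CPM in WT 1 to 3. Each H448L library was below WT 3, the WT library of its submission. WT 1 and WT 2, which were higher still, belong to the other submission. R227Q libraries were below WT libraries within each submission. The share of all genes that separate within submissions was not counted. The difference was −0.21 ± 0.05 in R227Q (adjusted p = 0.00224; −0.24 in 4LJFHN and −0.18 in SDKYMR) and −0.19 ± 0.06 in H448L (adjusted p = 0.0367; −0.21 in 4LJFHN). Without WT 3 the R227Q call was lost (−0.18, adjusted p = 0.104). Without the submission term the differences were −0.39 in R227Q (adjusted p = 0.290) and −0.58 in H448L (adjusted p = 0.114). The H448L call was also lost without WT 1, WT 3, R227Q 1, R227Q 3 or H448L 2, with adjusted p up to 0.489. With the counts of both genes added, the pair fell by 0.21 ± 0.04 in R227Q (adjusted p = 0.000203) and by 0.16 ± 0.04 in H448L (adjusted p = 0.0215), a value that does not depend on how reads were divided between them. HSPA1B also overlaps an annotated transcript on its own strand, AL671762.1, by 1422 bases.

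HSPH1, an HSP110 protein that serves HSP70 as a nucleotide exchange factor (chromosome 13, 31134974 to 31162388, minus strand), was the only gene of the 10 with a promoter in the table and no 2-unit match. It was measured at 125, 135 and 128 CPM in R227Q 1 to 3, at 145, 144 and 166 CPM in H448L 1 to 3, and at 162, 156 and 170.2 CPM in WT 1 to 3. Every R227Q library was below every H448L and WT library, while H448L 3 lay within the WT range. How common such separation is among all genes was not counted. The mean was 129 ± 4.87 CPM in R227Q, 152 ± 12.6 CPM in H448L and 163 ± 7.26 CPM in WT (SD, n = 3 each). The log2 fold change in R227Q was −0.37 ± 0.05 (adjusted p = 2.68e-06; −0.39 in 4LJFHN and −0.35 in SDKYMR), and it passed with each library left out and without the submission term. In H448L it was −0.18 ± 0.06 (adjusted p = 0.0487; −0.19 in 4LJFHN). The H448L call was lost without WT 1, WT 3, R227Q 1, R227Q 2, H448L 1 or H448L 2, with adjusted p up to 0.493, and without the submission term (−0.16, adjusted p = 0.192).

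DNAJA1, a J-domain partner of HSP70 (chromosome 9, 33025211 to 33039907, plus strand), had 285, 249.7 and 249 CPM in R227Q 1 to 3, 252, 264 and 259 CPM in H448L 1 to 3, and 336, 336 and 282 CPM in WT 1 to 3. Each H448L library was below WT 3, the WT library of its submission. R227Q 1 lay just above WT 3 but below both WT libraries of its own submission. The difference was −0.22 ± 0.04 in R227Q (adjusted p = 1.14e-04; −0.19 in 4LJFHN and −0.25 in SDKYMR), a call kept with each library left out and lost without the submission term (−0.31, adjusted p = 0.141). In H448L it was −0.17 ± 0.04 (adjusted p = 0.0150; −0.15 in 4LJFHN). That call was lost without WT 3 (adjusted p = 0.139), without R227Q 1 (adjusted p = 0.112) and without the submission term (−0.36, adjusted p = 0.0945).

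DNAJB1, the J-domain protein that is a classic HSF1 target (chromosome 19, 14514770 to 14529770, minus strand), showed 58.9, 38.2 and 41.3 CPM in R227Q 1 to 3, 43.2, 41.0 and 46.3 CPM in H448L 1 to 3, and 64.5, 63.3 and 43.9 CPM in WT 1 to 3. The genotypes overlap, and the SDKYMR libraries are the 3 highest. The difference was −0.14 ± 0.06 in R227Q (adjusted p = 0.0988; −0.15 in 4LJFHN and −0.13 in SDKYMR) and −0.03 ± 0.07 in H448L (adjusted p = 0.863; −0.04 in 4LJFHN). DNAJB1 overlaps TECR on the opposite strand by 12686 bases, so reads of the pair cannot be told apart if counting ignored strand.

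HSP90AB1, the constitutive cytosolic HSP90 (chromosome 6, 44246166 to 44253888, plus strand), reached 3234, 2977 and 2984 CPM in R227Q 1 to 3, 3031, 2998 and 2886 CPM in H448L 1 to 3, and 3573, 3594 and 3306 CPM in WT 1 to 3. Every variant library was below every WT library. How common such separation is among all genes was not counted. The difference was −0.16 ± 0.03 in R227Q (adjusted p = 0.00134; −0.16 in each submission) and −0.17 ± 0.04 in H448L (adjusted p = 0.00472; −0.18 in 4LJFHN). The R227Q call was lost without WT 3 (adjusted p = 0.0607) and without R227Q 1 (adjusted p = 0.0542). The H448L call was lost without WT 3 (adjusted p = 0.194). Without the submission term neither passed, and the H448L difference was −0.29 (adjusted p = 0.0800).

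HSP90AA1, the heat-inducible cytosolic HSP90 (chromosome 14, 102080738 to 102139699, minus strand), was counted at 2107, 1825 and 1776 CPM in R227Q 1 to 3, at 2030.3, 1980.0 and 2263 CPM in H448L 1 to 3, and at 2110.0, 2037 and 2135 CPM in WT 1 to 3. R227Q 2 and R227Q 3 were the lowest libraries, and R227Q 1 lay between the WT libraries of its submission. The R227Q difference was −0.12 ± 0.05 (adjusted p = 0.0749; −0.26 in 4LJFHN and 0.01 in SDKYMR). Without R227Q 1 it was −0.26 and passed (adjusted p = 0.00755), and without WT 3 it was 0.01. It also passed without WT 2 (adjusted p = 0.0331) and without H448L 3 (adjusted p = 0.0293). A test of whether the R227Q difference itself differed between submissions, chosen after the values were seen, gave −0.27 for 4LJFHN minus SDKYMR, with an unadjusted p of 0.00393 and an adjusted p of 0.999. In H448L the difference was 0.04 ± 0.05 (adjusted p = 0.763; −0.05 in 4LJFHN). The gene overlaps WDR20 on the opposite strand by 197 bases.

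HSPB1, the small heat shock protein HSP27 that holds unfolded clients without ATP (chromosome 7, 76302544 to 76304295, plus strand), stood at 1549.8, 2119 and 2116 CPM in R227Q 1 to 3, at 2123, 1961 and 1953 CPM in H448L 1 to 3, and at 1511, 1515 and 2143 CPM in WT 1 to 3. The low libraries are the 3 of SDKYMR. The difference was −0.0011 ± 0.04 in R227Q (adjusted p = 0.990; −0.03 in 4LJFHN and 0.02 in SDKYMR) and −0.09 ± 0.04 in H448L (adjusted p = 0.199; −0.11 in 4LJFHN). The R227Q value changes sign with upper-quartile factors (0.02). The H448L value passed without H448L 1 (−0.14, adjusted p = 0.0218).

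**Figure D2:**
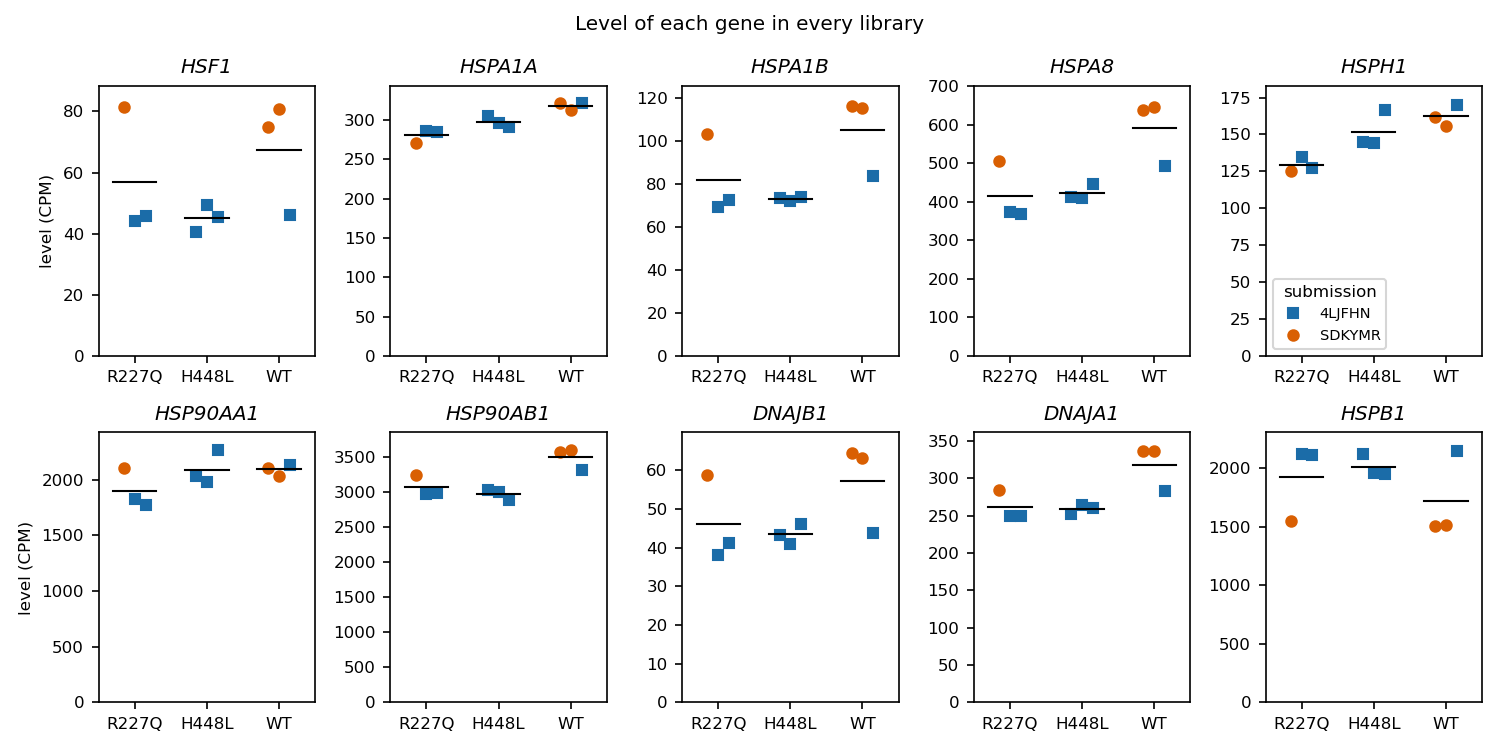
Level of each gene in CPM (vertical axis, from 0) in the 9 libraries, grouped as R227Q, H448L and WT; squares are 4LJFHN libraries, circles SDKYMR libraries, and bars group means. The CPM of HSPA1A does not overlap between genotypes (270.6 to 285.7, 290.5 to 305.6 and 313 to 321 CPM), while HSF1 and DNAJB1 separate by submission. For HSPA1A, H448L and R227Q did not differ in the edgeR test (adjusted p = 0.654).

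Set against each other, H448L and R227Q differed in 0 of the 10 genes, where 0.207% of all genes passed (0.0828% higher and 0.124% lower). Without adjustment 4 of the 10 had a p under 0.05, as did 10.9% of all genes, and the smallest adjusted p was 0.0705. HSPA8 was higher by 0.16 ± 0.04 in H448L than in R227Q (0.17 within 4LJFHN), HSPH1 by 0.19 ± 0.05 (adjusted p = 0.115; 0.20 in 4LJFHN) and HSP90AA1 by 0.16 ± 0.05 (adjusted p = 0.187; 0.20 in 4LJFHN). HSPB1 had a difference of −0.09 ± 0.04 (adjusted p = 0.336). DESeq2 passed HSPA8 (adjusted p = 0.0102) and HSPH1 (adjusted p = 0.0373). With no filter on low counts edgeR passed HSP90AA1 (0.14, adjusted p = 0.0218). The other 6 genes had differences between −0.02 and 0.11, with adjusted p of at least 0.560.

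The submission moved several of these genes more than the genotype did. In 4LJFHN against SDKYMR, 7 of the 10 genes were lower and 1 was higher, where 23.0% of all genes were lower and 20.8% higher (43.8% in either direction). HSF1 was 1.82-fold lower in 4LJFHN (log2 fold change −0.86 ± 0.06, adjusted p = 8.12e-13), DNAJB1 1.52-fold, HSPA1B 1.47-fold and HSPA8 1.38-fold. With the counts of HSPA1A and HSPA1B added, the pair differed by −0.13 ± 0.04 (adjusted p = 0.00466). HSPA1B held at most 27.6% of that sum. HSPA1A by itself differed by −0.0029. Whether HSPA1B RNA or the division of reads changed was not tested. DNAJA1 (−0.27), HSP90AB1 (−0.17) and HSP90AA1 (−0.14, adjusted p = 0.0138) were lower by less. HSPB1 was 1.34-fold higher. The HSP90AA1 difference was 0.00 without R227Q 1 (adjusted p = 0.997). HSPA1A (−0.0029 ± 0.04, adjusted p = 0.963) and HSPH1 (0.03 ± 0.05, adjusted p = 0.626) did not pass. Among marker genes, CD74 also moved with the submission, at 0 to 0.369 CPM in 4LJFHN and 6.45 to 9.31 CPM in SDKYMR. COL3A1 stood at 2.19 to 4.15 CPM in 4LJFHN and at 0 in SDKYMR. The summed haematopoietic markers reached 1.18 to 1.95 CPM in 4LJFHN and 7.92 to 11.1 CPM in SDKYMR. Their part in the chaperone differences was not tested.

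**Figure D3:**
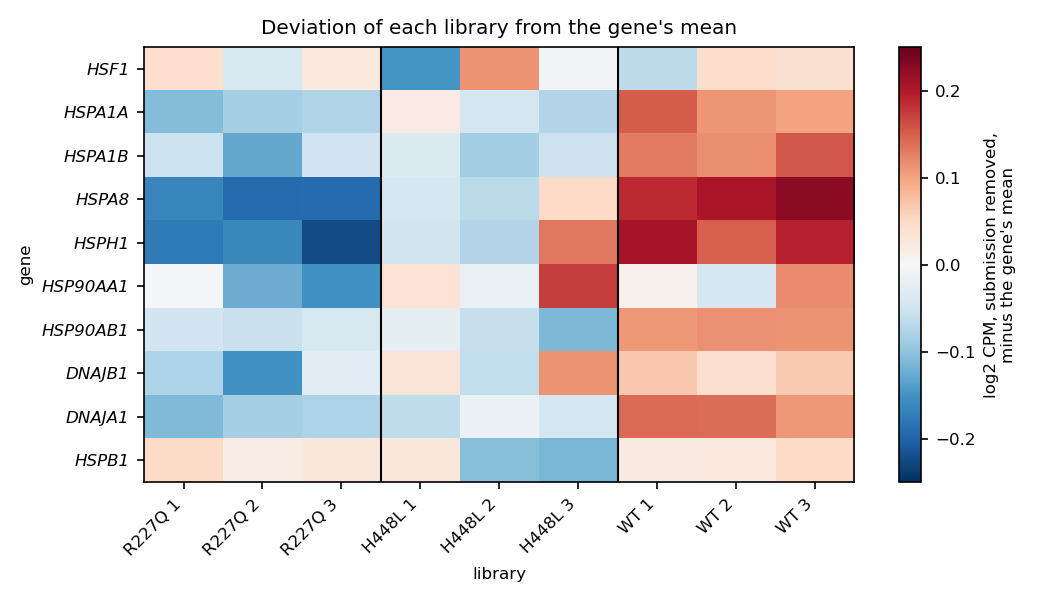
Deviation of each gene (rows) from its mean in each library (columns, R227Q, H448L, WT) as log2 CPM with the submission difference removed; red is above and blue below the gene's mean. HSPA8, HSPH1, HSPA1A, HSPA1B, HSP90AB1, DNAJA1 and DNAJB1 are below their mean in every R227Q library and above it in every WT library. HSF1 follows no genotype.

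After removal of the submission difference, in a fit that kept the groups, the genes were compared over the 9 libraries. Each gene's log2 CPM was correlated with the mean z-score of the other chaperones, a mean that never held HSF1. The correlation was 0.96 for HSPA1B and HSPA8, 0.91 for HSPA1A, 0.89 for DNAJA1 and HSPH1, and 0.83 for HSP90AB1. DNAJB1 had 0.69, HSP90AA1 0.38, HSPB1 0.13 and HSF1 −0.11. The highest value for any pair was 0.97, for HSPA8 and HSPH1, and the lowest −0.35, for HSP90AA1 and HSPB1. These libraries share genotype, submission and depth, so the values describe the 9 libraries and are not tests. Among 11121 named genes with a mean of at least 5 CPM, the pattern closest to the mean of the 9 chaperones was that of TMEM109 (Pearson r = 0.995), followed by RWDD1 (0.995), SYAP1 (0.991), SELENOK (0.991) and SUGT1 (0.990).

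Other genes of the chaperone network came from 8 lists. Of their 65 tested genes, 21 were lower and 1 higher in R227Q against WT, with a median of −0.10, where 9.91% of all genes were lower and 7.50% higher. In H448L against WT 14 were lower and 0 higher, with a median of −0.08, where 4.99% of all genes were lower and 2.97% higher. These counts depend on single libraries. The number lower in R227Q was 6 without WT 3, 8 without R227Q 1 and 14 to 23 without any other library, and the number lower in H448L was 1 without WT 3, 7 without R227Q 1 and 11 to 16 without any other. Without the submission term 0 of the 65 passed in either variant. H448L and R227Q differed in 0 of the 65 (edgeR; without adjustment 7 had a p under 0.05, where 10.9% of all genes did, and DESeq2 called 0).

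Co-chaperones of HSP90 and HSP70 fell in 6 of 14 in R227Q and 5 of 14 in H448L, where 9.91% and 4.99% of all genes fell. In R227Q the count was 2 without WT 3 and 3 without R227Q 1, and in H448L it was 0 without WT 3. SUGT1, which links HSP90 to its clients, was lower by 0.36 ± 0.05 in R227Q and by 0.29 ± 0.06 in H448L (adjusted p = 5.21e-06 and 0.00150). AHSA1, an activator of the HSP90 ATPase, had 202, 205 and 203 CPM in R227Q 1 to 3, 219, 209 and 206 CPM in H448L 1 to 3, and 251, 242 and 237 CPM in WT 1 to 3, with every variant library below every WT library. The share of all genes that separate this way was not counted. The AHSA1 difference was −0.26 ± 0.04 in R227Q (adjusted p = 3.79e-05) and −0.21 ± 0.05 in H448L (adjusted p = 0.00581). PTGES3, the p23 co-chaperone, fell by 0.16 ± 0.04 in R227Q (adjusted p = 0.00452) and by 0.21 ± 0.05 in H448L (adjusted p = 0.00321). Without WT 3 the H448L calls of SUGT1, AHSA1 and PTGES3 were lost (adjusted p = 0.197, 0.0810 and 0.105), as was the R227Q call of PTGES3 (adjusted p = 0.0616). Without R227Q 1 the H448L call of AHSA1 (adjusted p = 0.0621) and the R227Q call of PTGES3 (adjusted p = 0.1496) were lost.

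Among other HSP70 and HSP110 proteins and nucleotide exchange factors, 4 of 10 fell in R227Q, where 9.91% of all genes fell. In H448L 0 of 10 fell, where 4.99% of all genes fell, so little can be read from that count. There 1 had an unadjusted p under 0.05, DESeq2 passed 0 and RLE factors passed 1. The R227Q count was 0 without R227Q 1, 1 without WT 3 and 2 by DESeq2, and the H448L count was 1 without H448L 2. BAG1, an exchange factor of HSP70, was lower by 0.26 ± 0.06 in R227Q (adjusted p = 0.00131) and stood at −0.20 ± 0.06 in H448L (adjusted p = 0.0514). HSPA4L, an HSP110 protein, was lower by 0.21 ± 0.06 in R227Q (adjusted p = 0.0134). Without R227Q 1 the R227Q calls of BAG1 (adjusted p = 0.161) and HSPA4L (adjusted p = 0.135) were lost, and HSPA4L was also lost without WT 3 (adjusted p = 0.173).

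Of 7 other J-domain proteins, 1 fell in each variant, where 9.91% of all genes fell in R227Q and 4.99% in H448L, so little can be read from the count. It was DNAJC7, lower by 0.16 ± 0.04 in R227Q (adjusted p = 0.00428) and by 0.15 ± 0.05 in H448L (adjusted p = 0.0325). Its R227Q call was lost without WT 3 or R227Q 1 (adjusted p up to 0.141), and its H448L call without any 1 of 6 libraries, WT 1 to 3, R227Q 1, R227Q 3 and H448L 3 (adjusted p up to 0.437). Subunits of the TRiC chaperonin, the ring that folds actin and tubulin, and of its partner prefoldin had 4 lower and 1 higher of 14 in R227Q, and 3 lower of 14 in H448L. Over all genes 7.50% were higher in R227Q, so little can be read from the 1 higher. The number lower in R227Q was 1 without WT 3 and 2 without R227Q 1 or R227Q 2. In H448L it was 0 without WT 3, 3 without R227Q 2 or H448L 1, and 1 without any other library or with upper-quartile factors. CCT6A was lower by 0.23 ± 0.04 in R227Q (adjusted p = 4.93e-05) and by 0.17 ± 0.04 in H448L (adjusted p = 0.00986). PFDN5, a prefoldin subunit, was higher by 0.19 ± 0.05 in R227Q (adjusted p = 0.00373). Without WT 3 the H448L call of CCT6A (adjusted p = 0.409) and the call of PFDN5 (adjusted p = 0.141) were lost.

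Of 6 other HSF1 target genes, 2 fell in each variant, where 9.91% of all genes fell in R227Q and 4.99% in H448L. In R227Q the count was 1 without WT 1, WT 3, R227Q 1 or R227Q 2 and also by DESeq2, and in H448L it was 0 without R227Q 1 and 1 without WT 3. CACYBP, a binding partner of the calcyclin protein, was lower by 0.21 ± 0.04 in R227Q (adjusted p = 4.16e-04) and by 0.19 ± 0.05 in H448L (adjusted p = 0.00780). DEDD2 was lower by 0.25 ± 0.09 in R227Q (adjusted p = 0.0410), and SERPINH1, the collagen chaperone HSP47, by 0.24 ± 0.05 in H448L (adjusted p = 0.00389). The DEDD2 call was lost without any 1 of 5 libraries, WT 1 to 3, R227Q 1 and R227Q 2 (adjusted p up to 0.349), and by DESeq2 (adjusted p = 0.202). Without R227Q 1 the H448L calls of SERPINH1 (adjusted p = 0.0652) and CACYBP (adjusted p = 0.0576) were lost, and CACYBP was also lost without WT 3 (adjusted p = 0.147).

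Chaperones of the ER and mitochondria fell in 4 of 7 in R227Q and 3 of 7 in H448L, where 9.91% and 4.99% of all genes fell. In R227Q the count was 1 without WT 3 and 2 without R227Q 1, and in H448L it was 0 without WT 3 and 1 without H448L 2. HSP90B1, the HSP90 of the ER, was lower by 0.19 ± 0.04 in R227Q (adjusted p = 2.30e-04) and by 0.20 ± 0.04 in H448L (adjusted p = 0.00177). HSPE1, the mitochondrial HSP10, was lower by 0.22 ± 0.04 in R227Q (adjusted p = 1.49e-04) and by 0.16 ± 0.04 in H448L (adjusted p = 0.0198). Without WT 3 the H448L call of HSP90B1 (adjusted p = 0.137) and the calls of HSPE1 in R227Q (adjusted p = 0.0701) and H448L (adjusted p = 0.601) were lost, and the H448L call of HSPE1 was also lost without H448L 2 (adjusted p = 0.107). Of 3 other small heat shock proteins and 4 other heat shock factors and HSF1 regulators, 0 passed in edgeR or DESeq2 against WT. In edgeR 17.4% of all genes passed in R227Q and 7.97% in H448L, so little can be read from this 0. An unadjusted p under 0.05 was found in 0 of them, against 29.6% of all genes in R227Q and 21.5% in H448L. IFT25 (0.02 ± 0.05), HSBP1 (0.04 ± 0.04) and HSF2 (0.03 ± 0.07) had small differences in R227Q, whereas HSPB6 at 0.80 ± 0.42 (adjusted p = 0.211) and HSF2BP at 0.68 ± 0.40 (adjusted p = 0.270) had wide errors, at no more than 1.41 and 1.22 CPM in any library.

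**Figure D4:**
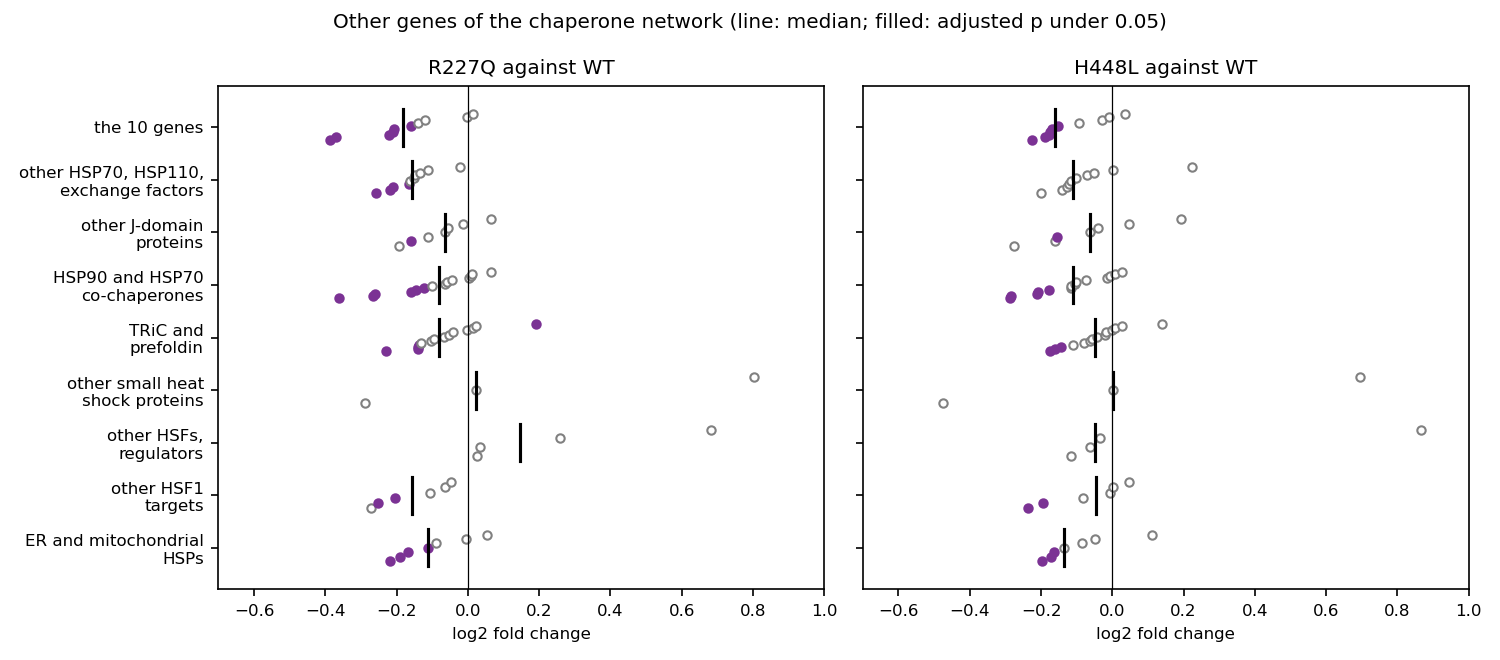
Log2 fold change (horizontal axis) of each tested gene in R227Q against WT and H448L against WT, for the 10 genes and for the 8 lists of other chaperone network genes; filled points passed an adjusted p under 0.05 and black lines are medians. Filled points lie below 0 apart from PFDN5 at 0.19 in R227Q.

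Counts of near-identical copies bear on the level of some of these genes. HSPA1B took 27.6%, 19.6% and 20.3% of the pair's count in R227Q 1 to 3, 19.4%, 19.6% and 20.3% in H448L 1 to 3, and 26.6%, 27.0% and 20.7% in WT 1 to 3. The share followed the submission, not the genotype. The annotated HSP90AA2P, 97.3% identical to the HSP90AA1 transcript, took 0.517% to 0.648% of the summed count with HSP90AA1 in 4LJFHN and 2.40% to 2.72% in SDKYMR. HSPB1P1, 97.6% identical to HSPB1 over 255 bases, took 8.81% to 9.02% of the summed count with HSPB1 in 4LJFHN and 8.05% to 8.29% in SDKYMR. With pseudogene counts added to their parent genes, 6 of the 10 genes were still lower in each variant. The 17 annotated copies of HSPA8 together took at most 0.403%.

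**Figure D5:**
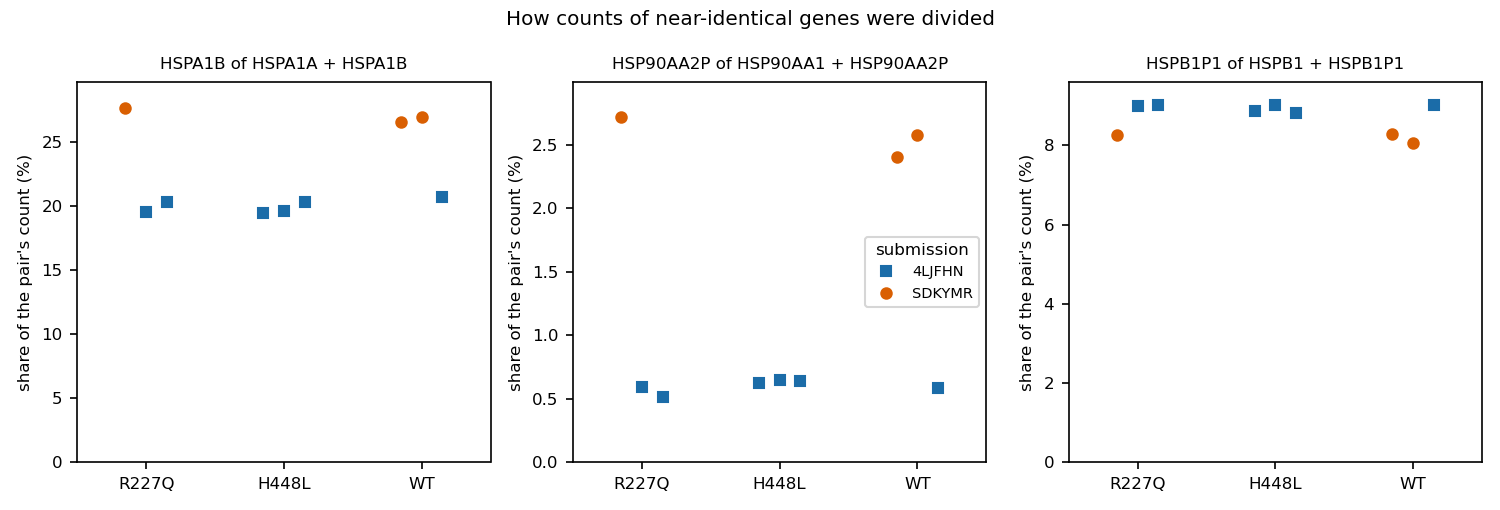
Share of a pair's summed count (vertical axis, percent, from 0) taken by HSPA1B, HSP90AA2P and HSPB1P1 in the libraries of R227Q, H448L and WT; squares are 4LJFHN and circles SDKYMR. The HSPA1B share is 19.4% to 20.7% in 4LJFHN and 26.6% to 27.6% in SDKYMR.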

How the data were processed

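The members and gene lists were chosen with earlier results of these data known. A sequencing service extracted RNA from cell lysates, captured poly-A mRNA and made Illumina libraries by tagmentation, per the labels' protocols. The submitters' processing notes name GRCh38. Aligner, counter and annotation are not given in the sources used. Deposited values were estimated counts, per the file headers, and CPM, which equals the count over the library's total scaled to 1000000 (checked within 1e-05). Counts were rounded to whole numbers. The 92 spike-in rows, at most 0.000147% of a library, were left out.

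Genes were kept by filterByExpr with the groups. TMM factors were 0.969 to 1.02. A single edgeR 4.0.16 quasi-likelihood fit (R 4.3.3) held the 3 groups and the submission over 9 libraries, with 5 residual degrees of freedom and p-values adjusted over all 16908 genes, two-sided. It was tested on simulated data. Standard errors were obtained by dividing the log2 fold change by the root of F. Within submissions, means of log2 CPM (prior count 2) were subtracted, without a test. The text names all 10 genes, and in each list the 2 genes with the smallest p per comparison, as far as they add a value; AHSA1 and HSPE1 in H448L, PTGES3, IFT25, HSBP1 and HSF2 in R227Q, and the marker genes given by name were named after their values were seen. No library was a copy of another: for libraries of the same group the chi-square per degree of freedom was 1.49 to 2.41 within a submission and 20.3 to 21.6 between submissions. Alternatives were DESeq2 1.42.0, limma-voom (limma 3.58.1), other factors and filters, unrounded counts, no submission term, 4LJFHN alone, a replicate block, the groups compared only, leaving out each library, and adding counts of near-identical genes. HSPB11 was matched as IFT25 through RefSeq synonyms. Promoters are RefSeq's (GRCh38.p14), and gene positions and copies were read from GENCODE models on GRCh38. Copies were aligned with Biopython 1.88.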

Additional observations from a re-analysis of the deposited data

How the results depend on the processing

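In R227Q against WT the number of the 10 genes called lower was 6 with RLE and upper-quartile factors, DESeq2 and limma-voom, 1 without the submission term (HSPH1), 3 in 4LJFHN libraries alone, and 4 to 7 with 1 library left out, the lowest without WT 3. In H448L against WT it was 3 with upper-quartile factors, 0 without the submission term, 2 in 4LJFHN alone and 2 with the compared groups only. It was 0 to 6 with 1 library left out: 0 without WT 3, 2 without R227Q 1, and 3 without WT 1 or H448L 2. In H448L against R227Q it was 2 higher by DESeq2 and 1 higher with no filter. Genes called in R227Q against WT numbered 2944, and 1546 by DESeq2, 312 without the submission term, 1138 in 4LJFHN alone and 1093 to 3262 with 1 library left out (1093 without WT 3, 1278 without R227Q 1). In H448L against WT 1347 were called, and 733 by DESeq2, 147 without the submission term, 734 in 4LJFHN alone, 756 with the compared groups only and 253 to 1378 with 1 library left out (253 without WT 3, 771 without R227Q 1). In H448L against R227Q 35 were called, and 54 by DESeq2, 122 with no filter, 1 without the submission term, 22 with the compared groups only and 4 to 91 with 1 library left out, the lowest without R227Q 3 and the highest without H448L 1. The share of calls that were higher was 43.1% in R227Q against WT, 54.0% with upper-quartile factors and 32.7% by DESeq2, and in H448L against WT it was 37.3%, and 19.5% by DESeq2. Counts between submissions stayed within 1.5 times under the alternatives run. With 4LJFHN alone, the lone WT library is assumed to vary like the others. The cause of these changes was not tested. Replicate numbers did not pair the libraries: same-numbered libraries of R227Q and WT deviated from their group means with correlations of 0.66, −0.56 and 0.66, which follow the submissions. With the replicate block 2669 genes were called in R227Q against WT with 6 of the 10 genes lower, 1055 in H448L against WT with 3 of the 10 lower (HSPA1A, HSPA8 and HSP90AB1), 31 in H448L against R227Q and 5408 between submissions.

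Some log2 fold changes changed sign. In R227Q against WT, HSPB1 was 0.022 with upper-quartile factors, 0.0038 with a mean of at least 10 counts, 0.0020 with unrounded counts, 0.14 without the submission term, 0.0011 with the compared groups only and −0.027 to 0.023 with 1 library left out. HSF1 was −0.00036 by DESeq2, −0.26 without the submission term, −0.045 in 4LJFHN alone and −0.044 to 0.050 with 1 library left out. Leaving out 1 library gave −0.26 to 0.011 for HSP90AA1, positive without WT 3, and −0.17 to 0.71 for HSF4. In H448L against WT, HSF1 was 0.010 with upper-quartile factors, 0.071 with the replicate block and −0.077 to 0.058 with 1 library left out. HSP90AA1 was −0.058 without the submission term, −0.054 in 4LJFHN alone, −0.050 with the compared groups only and −0.053 to 0.21 with 1 library left out. DNAJB1 was 0.012 with the replicate block and −0.069 to 0.015 with 1 library left out. Without the submission term HSPB1 was 0.17, DNAJA2 0.20, HSF2 0.0030, SERPINH1 0.048, HSP90B1 0.064, HSPA5 0.034 and HSPE1 0.044, none of which passed, although SERPINH1, HSP90B1, HSPA5 and HSPE1 were lower with that term. In H448L against R227Q, values without the submission term were −0.19 for HSPA1B, −0.0098 for HSPA8, −0.12 for DNAJB1, −0.045 for DNAJA1, 0.036 for HSPB1, 0.015 for DNAJA2 and 0.00037 for SERPINH1. HSF1 was 0.013 with the replicate block and −0.095 to 0.040 with 1 library left out. The other ranges with 1 library left out were −0.021 to 0.036 for HSPA1B, −0.041 to 0.0056 for HSP90AB1, −0.39 to 0.028 for CRYAB and −0.065 to 0.0050 for IFT25. Between submissions HSPA1A was 0.0048 with RLE factors and by DESeq2, 0.013 with upper-quartile factors, 0.051 with the replicate block and −0.023 to 0.028 with 1 library left out. HSPH1 was −0.027 and HSF2BP 0.20 with the replicate block. Depth limits the least abundant of the 10 genes: counting alone gives a coefficient of variation of 4.82% at the lowest count, 430.5 for DNAJB1, and 0.464% at the highest, for HSP90AB1, beside a fitted 2.96% between libraries over all genes.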
